A study of Mus musculus with 30 samples.

Results

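The nuclear-encoded subunits of the mitochondrial respiratory chain and ATP synthase were followed in mouse blood stem and progenitor cells after MTP10-HDL, nanoparticles of high-density lipoprotein loaded with muramyl tripeptide, which mimics a piece of bacterial cell wall sensed inside the cell by Nod2. The members were chosen by name alone: protein-coding genes of both count tables with an Nduf subunit, Sdh, Uqcr, Cox4 to Cox8 or Atp5 symbol, without the Ndufaf assembly factors. The rule found 86 gene rows of 55471 in each table, of which 38 belong by name to complex I, 4 to complex II, 8 to complex III, 18 to complex IV and 18 to complex V. The 86 rows carry 85 symbols, since Atp5o is listed under 2 identifiers, 1 of which had no count in any library. Ndufa4 was kept with complex I as its name says, although the protein is now placed in complex IV.

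Sorted hematopoietic stem cells (HSCs) gave 6 libraries from MTP10-HDL mice and 7 from mice given phosphate-buffered saline (PBS), and multipotent progenitors (MPPs), the cells one step further down, gave 3 MTP10-HDL and 2 PBS libraries. All mice were of the C57BL/6 strain, with no transgene or deletion named, and each library was made from the pooled cells of 4 mice. For MPPs, the labels give 3 injections in 5 days with bone marrow taken 1 day after the last. That schedule is not given for the HSC libraries in the sources used here, and no age is given for either cell type. Pools are the replicates, so every p-value below measures the spread between pools. The 12 chromatin accessibility samples of the series were not analysed here.

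The respiratory chain sits in the inner mitochondrial membrane. Complexes I (NADH dehydrogenase) and II (succinate dehydrogenase) pass electrons to ubiquinone, complex III passes them on to cytochrome c, and complex IV (cytochrome c oxidase) hands them to oxygen, while complexes I, III and IV pump protons that drive ATP synthase, or complex V. Most subunits are made from nuclear genes and imported, and the remainder come from mitochondrial DNA. HSCs are known for a low use of oxidative phosphorylation at rest and a greater use as they leave quiescence and differentiate. Promoters of subunit genes are known for sites of the transcription factors NRF1, GABP (of the ETS family) and YY1.

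Promoter sequences of the subunits hold these motifs as follows. RefSeq promoters of build GRCm38.p6, running 250 bases before to 50 bases after the start, were found for 68 of the 85 symbols, with 73 promoters in all. The NRF1 motif GCGCATGCG, read on both strands, was present in 8 of 73 subunit promoters (10.96%) and in 575 of 32851 mouse promoters (1.75%). The 8 windows around it are shown because they place 1 shared motif in subunits of complexes I, III, IV and V. Each is written 5′ to 3′ along the gene's own strand, with the motif or its reverse complement in capitals. In Atp5k, Cox6a1, Uqcrc1, Atp5g2 and Ndufa11 the motif also matches on the other strand, shifted by 1 base.
Uqcr11 (chr10:80406808-80406836, minus strand): atcgccttcaCGCATGCGCtatacgtctg
Uqcrc1 (chr9:108936668-108936696, plus strand): actccgctctGCGCATGCGcagcgcggct
Cox6a1 (chr5:115349102-115349130, minus strand): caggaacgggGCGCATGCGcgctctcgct
Atp5k (chr5:108434431-108434459, minus strand): tttcactgcgGCGCATGCGcctttctggc
Ndufa8 (chr2:36049329-36049357, minus strand): tcgctggagaCGCATGCGCagatggtacc
Ndufa11 (chr17:56717692-56717720, plus strand): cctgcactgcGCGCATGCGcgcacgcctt
Atp5g2 (chr15:102671071-102671099, minus strand): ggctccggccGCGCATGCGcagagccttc
Atp5l (chr9:44920965-44920992, minus strand): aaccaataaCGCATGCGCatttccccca

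In Uqcrc1 the motif lies after the start, and in the other 7 promoters it begins before it. The ETS motif CCGGAAG was found in 17 of the 73 promoters (23.29%, against 8.86% of all promoters), among them those of Cox6a1, Cox8a, Cox6b1, Sdhb and Uqcr11. The YY1 motif AAGATGGC was found in 10 (13.7%, against 2.75%). In 8 of these 10 it lies after the start. The next windows show it in 3 complex I subunits, Ndufa9 and Ndufb8, which are described below, and the iron-sulfur subunit Ndufs7.
Ndufa9 (chr6:126849098-126849125, minus strand): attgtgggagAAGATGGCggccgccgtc
Ndufb8 (chr19:44555393-44555414, minus strand): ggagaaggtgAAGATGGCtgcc
Ndufs7 (chr10:80249463-80249490, plus strand): ggccgaggccAAGATGGCggcgctggcg

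The NFY motif CCAAT, at 31 of 73 promoters (42.47%), was close to its share over all promoters (37.4%). Atp5b, the beta subunit of ATP synthase and the subunit with the smallest p-value in HSCs, has it 5 times within 250 bases, counting 1 copy on the opposite strand (ATTGG). Its upstream sequence is shown with these copies in capitals, and it holds none of the other 3 motifs.
Atp5b (chr10:128083057-128083306, plus strand): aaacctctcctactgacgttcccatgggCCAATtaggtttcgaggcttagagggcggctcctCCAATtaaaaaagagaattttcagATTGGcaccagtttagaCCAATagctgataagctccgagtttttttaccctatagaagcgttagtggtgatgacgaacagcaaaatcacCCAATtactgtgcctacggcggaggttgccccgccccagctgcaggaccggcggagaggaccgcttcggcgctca
A match is a description of the letters and not of binding.

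HSC libraries held 4064155 to 7879858 counts and MPP libraries 11252479 to 32769369. The subunits took 0.408% to 0.651% of all counts in MTP10-HDL HSCs and 0.358% to 0.466% in PBS HSCs, and 0.993% to 1.38% in MTP10-HDL MPPs and 0.749% to 1.02% in PBS MPPs. These shares also depend on the rest of each library. Mitochondrial ribosomal RNA took 12.4% to 27.9% of counts in MTP10-HDL HSCs and 20.4% to 27.6% in PBS HSCs. In MPPs it took at most 0.185%. Immunoglobulin genes took 0.374% to 4.90% in MTP10-HDL HSCs and 0.271% to 19.8% in PBS HSCs. In MPPs they took 2.76% to 4.26% with MTP10-HDL and 6.20% to 12.5% with PBS. The shares are therefore not a measure of subunit levels. Levels below are CPM, that is counts scaled to a common total, with TMM normalization (the trimmed mean of M values), and since transcript lengths were not used they compare 1 gene between libraries and not 1 gene with another. All 12 markers of HSC identity (such as Procr, Mecom and Hlf) and all 7 of MPP identity (such as Flt3 and Cd34) were tested in both tables, so none was absent. Fewer cells of a type in a pool and less RNA per cell cannot be told apart in these bulk libraries.

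In HSCs, most subunits had a higher mean level after MTP10-HDL, but the shifts were small and no subunit passed the test. Of the 86 rows, 77 passed the filter on low counts, and 67 of the 77 had a log2 fold change above 0, where 47.7% of all 16631 genes tested did. Their median log2 fold change (MTP10-HDL over PBS) was 0.20, against -0.02 over all genes. Over the libraries, the median correlation of a subunit with the mean of the other subunits was 0.68, so these counts are not independent results. edgeR's quasi-likelihood test called 0 of 77 at an adjusted p of 0.05 (Benjamini-Hochberg over all genes), and it called 0% of all genes. At an unadjusted p under 0.05 it held 11 subunits, all higher in MTP10-HDL, where 4.36% of all genes were higher and 4.47% lower at that level. DESeq2 called 1 subunit, Atp5b, and 92 of the 14029 genes it gave an adjusted p (0.656%), and limma voom called 0 subunits and 0% of all genes. Without the filter on low counts edgeR called 0 subunits and 44 of 47787 genes (0.0921%).

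By complex, the HSC median log2 fold change was 0.13 for complex I (32 of 36 above 0), 0.18 for complex II (3 of 4), 0.28 for complex III (7 of 8), 0.22 for complex IV (10 of 12) and 0.19 for complex V (15 of 17). The 8 rows with an established symbol of their own that did not pass the filter were Ndufa4l2, Ndufs5, Cox4i2, Cox6a2, Cox7a1, Cox7b2, Cox8b and Cox8c. Most of these are isoforms known from muscle, lung or testis.

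**Figure D1:**
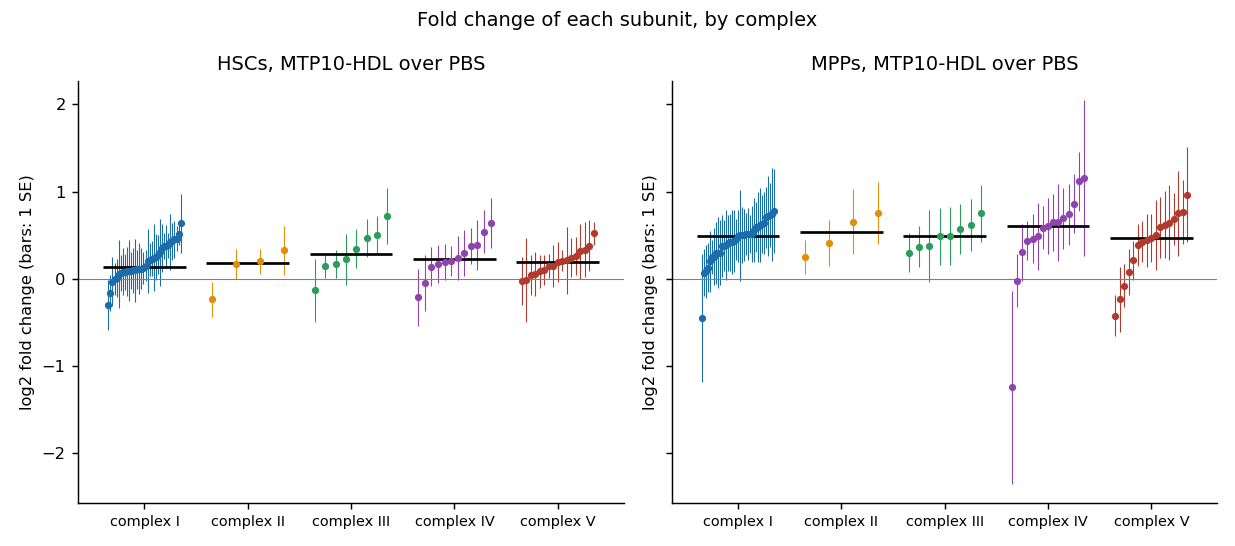
Log2 fold change (MTP10-HDL over PBS) of every subunit tested in HSCs (left) and MPPs (right), sorted within complexes I to V; points are subunits, thin bars are 1 SE and black lines are complex medians. The medians run from 0.13 to 0.28 in HSCs and from 0.47 to 0.61 in MPPs, and many of the bars reach 0.

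Complex I held 5 of the 11 subunits at an unadjusted p under 0.05 in HSCs. Ndufv1 (chr19:4007499-4012755 in GRCm38.p6), which binds the flavin that accepts electrons from NADH, had 50.8, 56.8 and 69.3 CPM (lowest, median and highest) in the 6 MTP10-HDL pools, against 28.9, 42.7 and 47.6 CPM in the 7 PBS pools. Every MTP10-HDL pool lay above every PBS pool, which held for no other subunit tested and for 0.174% of all genes tested. The difference did not pass the threshold (log2 fold change 0.52, standard error (SE) 0.14, unadjusted p 0.00142, adjusted p 0.302). Ndufa9 (chr6:126821863-126849144), an accessory subunit at the joint of the matrix and membrane arms, had 60.6, 77.0 and 82.6 CPM in MTP10-HDL pools, against 43.0, 52.3 and 75.9 CPM in PBS pools. Its groups overlapped through PBS pool 6, the highest of the PBS pools, and its log2 fold change was 0.46 (SE 0.14, adjusted p 0.38) in edgeR.

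The accessory subunit Ndufa10 had 80.5, 94.7 and 120.5 CPM in MTP10-HDL pools, against 56.5, 78.2 and 92.1 CPM in PBS pools, with 0.37 (SE 0.15, adjusted p 0.514). The groups overlapped, PBS pool 1 being the highest PBS pool. Ndufa13 and Ndufb8 had log2 fold changes of 0.45 (SE 0.21, adjusted p 0.562) and 0.43 (SE 0.21, adjusted p 0.57), where Ndufa13, named after its values were seen, was also at an unadjusted p under 0.05. The largest iron-sulfur subunit, Ndufs1, had 46.2, 59.1 and 96.6 CPM in MTP10-HDL pools, against 51.1, 63.2 and 92.5 CPM in PBS pools, with a log2 fold change of -0.01 (SE 0.18, adjusted p 0.993). MTP10-HDL pool 3 was the highest of all its pools and the groups overlapped almost fully. Ndufb7, an accessory subunit facing the intermembrane space, had the lowest log2 fold change of all subunits in HSCs, -0.30 (SE 0.29, adjusted p 0.76), with 7.44, 17.7 and 27.5 CPM in MTP10-HDL pools, against 16.1, 21.8 and 31.0 CPM in PBS pools, and its groups overlapped.

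The 7 core subunits of complex I tested had a median log2 fold change of 0.12 in HSCs, with 6 of 7 above 0, and the 29 accessory subunits had 0.15, with 26 of 29 above 0. In complex II the flavin subunit Sdha had 219, 272 and 420.2 CPM in MTP10-HDL pools, against 210.3, 254 and 304 CPM in PBS pools (0.20 on the log2 scale), and the iron-sulfur subunit Sdhb had 21.3, 28.6 and 51.4 CPM in MTP10-HDL pools, against 14.1, 21.6 and 42.7 CPM in PBS pools (0.33). Sdhc, a membrane anchor, had 40.0, 64.1 and 73.9 CPM in MTP10-HDL pools, against 47.9, 66.7 and 119 CPM in PBS pools, with a log2 fold change of -0.24 (SE 0.20, adjusted p 0.735). In all 3 genes the groups overlapped, and the highest Sdhc value was that of PBS pool 1.

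Complex III had the highest median of the 5 complexes in HSCs. Uqcr11, a small subunit with the NRF1 motif shown above, had the largest log2 fold change of all, 0.72 (SE 0.32, adjusted p 0.55), on low levels of 8.92, 10.5 and 11.2 CPM in MTP10-HDL pools, against 2.20, 6.27 and 10.1 CPM in PBS pools. Uqcr10, another small subunit (chr11:4701968-4704344), had 19.9, 25.3 and 32.8 CPM in MTP10-HDL pools, against 10.8, 15.4 and 24.0 CPM in PBS pools, with 0.51 (SE 0.21, adjusted p 0.524). The core protein Uqcrc1 had 55.6, 75.4 and 111 CPM in MTP10-HDL pools, against 29.7, 57.3 and 81.8 CPM in PBS pools, with 0.47 (SE 0.22, adjusted p 0.562). In each of these the MTP10-HDL pools overlapped the upper PBS pools, while the lowest PBS values came from pool 5 or pool 7. The Rieske iron-sulfur protein Uqcrfs1 had 29.9, 40.8 and 68.4 CPM in MTP10-HDL pools, against 21.4, 30.8 and 52.1 CPM in PBS pools, with 0.34 (SE 0.22, adjusted p 0.658).

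Of complex IV in HSCs, Cox8a (chr19:7215158-7217616), a small subunit with 2 ETS motifs around its start, had 45.8, 63.0 and 81.3 CPM in MTP10-HDL pools, against 14.8, 35.4 and 79.1 CPM in PBS pools, with a log2 fold change of 0.64 (SE 0.28, adjusted p 0.55). Cox6b1, which faces the intermembrane space, had 35.8, 43.8 and 49.5 CPM in MTP10-HDL pools, against 10.1, 30.9 and 50.8 CPM in PBS pools, with 0.54 (SE 0.24, adjusted p 0.553). PBS pool 1 lay just below the highest MTP10-HDL pool for Cox8a and above every MTP10-HDL pool for Cox6b1, and PBS pool 5 was lowest in both. Cox4i1, which takes part in regulation by ATP, had 78.4, 104 and 123 CPM in MTP10-HDL pools, against 61.8, 90.7 and 112 CPM in PBS pools (0.20 on the log2 scale). Cox5a, which binds to the matrix side, had 11, 19.2 and 35.6 CPM in MTP10-HDL pools, against 9.91, 13.4 and 27.1 CPM in PBS pools (0.39), with overlapping groups in both genes.

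In ATP synthase the catalytic beta subunit Atp5b (ENSMUSG00000025393, chr10:128083307-128090388) had 1157, 1584 and 1675 CPM (lowest, median and highest) in the 6 MTP10-HDL pools, against 855, 1015 and 1164 CPM in the 7 PBS pools. That is a 1.43-fold higher level in MTP10-HDL HSCs (log2 fold change 0.52, standard error (SE) 0.13, unadjusted p 0.000872, adjusted p 0.261). The 6 MTP10-HDL pools ran from just below the highest PBS value upward, so the groups met only at their edges. DESeq2 put it past the threshold, with a log2 fold change of 0.50 and an adjusted p of 0.0177, among the 0.656% of genes that it called, and it called no other subunit. Its partner in the F1 head, the alpha subunit Atp5a1, had 403, 527 and 697 CPM in MTP10-HDL pools, against 421, 470.0 and 621 CPM in PBS pools, with 0.14 (SE 0.14, adjusted p 0.762), and the gamma subunit Atp5c1 had 183, 197 and 204 CPM in MTP10-HDL pools, against 140.5, 167 and 209 CPM in PBS pools, with 0.21 (SE 0.12, adjusted p 0.597). The groups overlapped in both.

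The size of the HSC shift varied with the PBS pools included. PBS pool 5 was the lowest PBS pool for 34 of 77 subunits and PBS pool 7 for 15, while PBS pool 1 was the highest PBS pool for 57. Pools 5 and 7 were also the shallowest HSC libraries, with 4215378 and 4064155 counts, where the others had 5467455 to 7879858, and the part of depth in the result was not tested. Summed over all subunits, the MTP10-HDL pools held 4315 to 5728 CPM (median 5298) and the PBS pools 3412 to 5544 CPM (median 4127), so the groups overlapped. Without PBS pools 5 and 7 the median log2 fold change was 0.06, with 47 of 78 subunits above 0, and the complex I median was 9.14e-05. Without PBS pool 1 the median over all subunits was 0.34, and with any 1 library left out it was 0.14 to 0.34. These PBS pools are among the lowest or highest in the subunits themselves. Leaving them out therefore moves the median in a direction known beforehand. Atp5b and Ndufv1 kept log2 fold changes of 0.43 and 0.45 without pools 5 and 7, where Cox6a1 came to 0.07 and Uqcrq to -0.05. Ribosomal protein transcripts, a list added after the data were seen, were also lowest in PBS pools 5 and 7, with 4618 and 5346 summed CPM, where the MTP10-HDL pools had 5961 to 9465 and all PBS pools 4618 to 9661. Over that list 54 of 73 genes were higher in MTP10-HDL, with a median log2 fold change of 0.13. Its part in the subunit result was not tested.

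The HSC libraries were split by rank into 3 technical kinds. These were 4 with the fewest detected genes, 4 others with the most non-mitochondrial ribosomal RNA (0.813% to 1.26% of counts), and the other 5. Mitochondrial ribosomal RNA was not used in the split. The mean subunit score (centred log2 CPM over all subunits) was higher in MTP10-HDL by 0.27 overall. In the libraries with few genes (2 MTP10-HDL, 2 PBS) the difference was -0.0087. In those with the most non-mitochondrial ribosomal RNA (2 and 2) it was 0.17. In the others (2 MTP10-HDL, 3 PBS, among them PBS pools 5 and 7) it was 0.49. In the libraries with few genes, the scores were 0.21 and 0.18 in MTP10-HDL pools 2 and 3. They were 0.50 and -0.09 in PBS pools 1 and 4. With so few libraries in each kind, these differences cannot tell an effect of the kind from single pools.

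**Figure D2:**
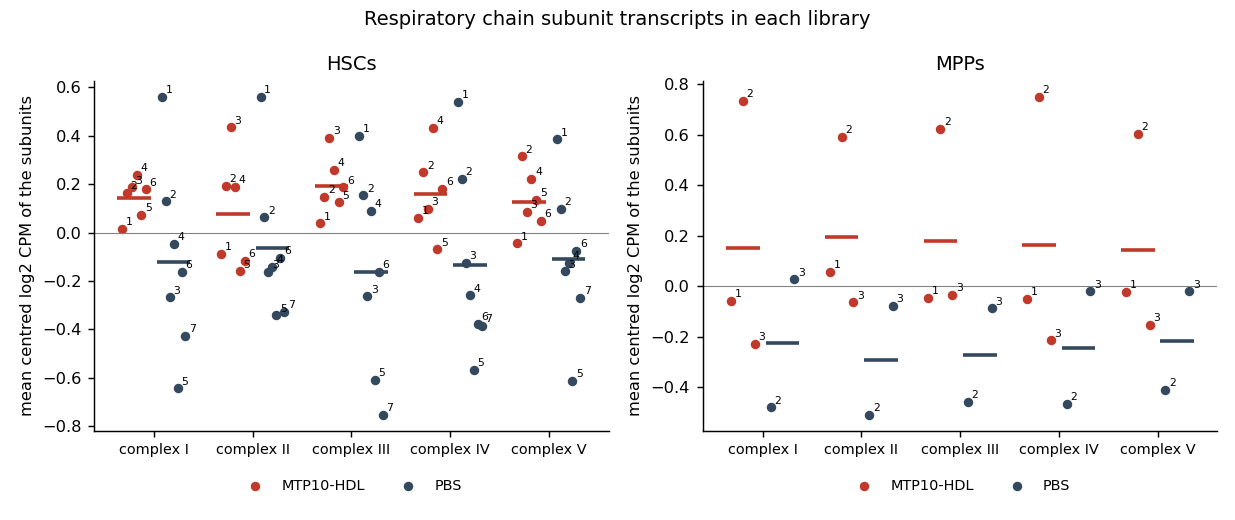
Mean centred log2 CPM of the subunits of complexes I to V in each HSC library (left) and MPP library (right); points are libraries with their numbers, red MTP10-HDL and dark blue PBS, and bars are group means. In HSCs, PBS pool 1 lies at the top and PBS pools 5 and 7 near the bottom for complexes I, III, IV and V; in MPPs, MTP10-HDL pool 2 lies highest and PBS pool 2 lowest in all 5 complexes.

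In MPPs the median fold change with all pools was larger, but it rested on fewer pools, and again no subunit passed the test. Here 81 rows passed the filter and 75 of them had a log2 fold change above 0, where 52% of all 15449 genes tested did. Their median log2 fold change was 0.49, against 0.02 over all genes. edgeR called 0 of 81 subunits and 0% of all genes. At an unadjusted p under 0.05 it held 4 subunits, all higher in MTP10-HDL, where 2.17% of all genes were higher and 4.06% lower. DESeq2 called 0 subunits, where it called 180 of 15443 genes (1.17%), and limma voom called 0 subunits and 0% of all genes. Every MTP10-HDL pool lay above every PBS pool for 27 of 81 subunits, against 12% of all genes tested, and below every PBS pool for 0, against 12.3%. The median correlation of a subunit with the mean of the others was 0.96 over the MPP libraries. These counts therefore largely repeat a shift that the subunits share, and are not independent results.

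The medians by complex in MPPs were 0.49 for complex I (36 of 37 above 0), 0.53 for complex II (4 of 4), 0.49 for complex III (8 of 8), 0.61 for complex IV (13 of 15) and 0.47 for complex V (14 of 17). The 4 subunits at an unadjusted p under 0.05 were Cox6a1, Cox6a2 and Cox8a of complex IV and Ndufa10 of complex I. Cox6a2, the heart and skeletal muscle isoform of Cox6a (chr7:128205435-128206366), had 9.88, 14.8 and 15.7 CPM in MTP10-HDL pools 1, 2 and 3, against 5.78 and 6.64 CPM in PBS pools 2 and 3. All 3 MTP10-HDL pools lay above both PBS pools, and pool 3 was the highest (log2 fold change 1.12, standard error (SE) 0.34, unadjusted p 0.0116, adjusted p 0.62). The widely expressed isoform Cox6a1 had 109, 216 and 121 CPM in MTP10-HDL pools, against 71.1 and 92.2 CPM in PBS pools, with a log2 fold change of 0.86 (SE 0.34, adjusted p 0.768), and again no overlap.

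Cox8a had 126, 179 and 156 CPM in MTP10-HDL pools, against 85.5 and 119.5 CPM in PBS pools in MPPs, with 0.58 (SE 0.25, adjusted p 0.794), and Ndufa10 had 119, 149.9 and 113 CPM in MTP10-HDL pools, against 84.6 and 93.8 CPM in PBS pools, with 0.51 (SE 0.22, adjusted p 0.791). Neither showed an overlap of the groups, and MTP10-HDL pool 2 was the highest pool in both. Ndufv1 had 101, 143 and 102 CPM in MTP10-HDL pools, against 77.4 and 91.6 CPM in PBS pools, with 0.45 (SE 0.24, adjusted p 0.826). Ndufa9 had 71.8, 108 and 79.5 CPM in MTP10-HDL pools, against 57.1 and 64.2 CPM in PBS pools (0.51 on the log2 scale). Ndufv1 and Ndufa9 also showed no overlap, MTP10-HDL pool 2 being highest. Ndufs1 was flatter, with 117, 133 and 107 CPM in MTP10-HDL pools, against 97.3 and 103 CPM in PBS pools and a log2 fold change of 0.25. Ndufb7, the lowest in HSCs, was the highest of complex I in MPPs at 0.78 (SE 0.48, adjusted p 0.867), but its values of 57.1, 163 and 60.8 CPM in MTP10-HDL pools, against 44.2 and 65.0 CPM in PBS pools overlapped and were set apart by pool 2.

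In complex II of MPPs, Sdhb had 129, 225 and 102 CPM in MTP10-HDL pools, against 75.2 and 105 CPM in PBS pools (0.75) and Sdhc had 127, 238 and 113 CPM in MTP10-HDL pools, against 78.3 and 124 CPM in PBS pools (0.66). Both overlapped at MTP10-HDL pool 3 and PBS pool 3. Sdha differed less and without overlap, with 383, 344 and 374 CPM in MTP10-HDL pools, against 298 and 320.2 CPM in PBS pools (0.25). In complex III, Uqcrq, a small subunit close to cytochrome b, had 40.7, 76.1 and 40.8 CPM in MTP10-HDL pools, against 28 and 34.5 CPM in PBS pools, with 0.75 (SE 0.33, adjusted p 0.801). Uqcr10 had 58.5, 95.5 and 58.4 CPM in MTP10-HDL pools, against 38.4 and 54.2 CPM in PBS pools (0.61), and neither gene overlapped. Uqcrc1 had 188, 253 and 168 CPM in MTP10-HDL pools, against 148 and 167 CPM in PBS pools (0.37), with MTP10-HDL pool 3 just above PBS pool 3.

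**Figure D3:**
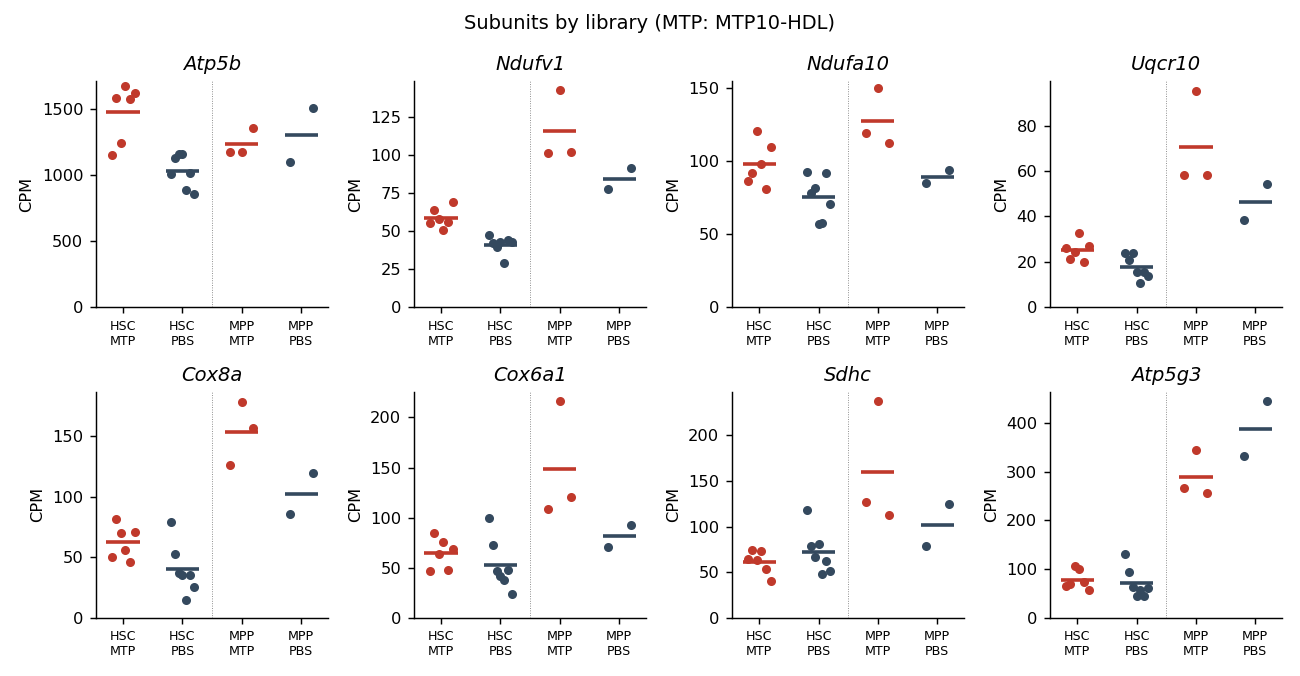
CPM of 8 subunits in each library, with the mean of each group as a bar, MTP10-HDL (MTP, red) to the left of PBS (dark blue) within HSCs and MPPs; each panel has its own linear axis from 0. Atp5b is higher in MTP10-HDL HSCs and lies within the spread in MPPs, and Atp5g3 in MPPs lies between 256 and 344 CPM in MTP10-HDL pools against 331 and 444 CPM in PBS pools.

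In ATP synthase, 3 of 17 subunits lay below 0 in MPPs and 14 above. Atp5pb, a stalk subunit that holds the head still, had 278, 449 and 273 CPM in MTP10-HDL pools, against 174 and 240.1 CPM in PBS pools, with 0.69 (SE 0.30, adjusted p 0.798), and Atp5j2, a small membrane subunit, had 113, 220.3 and 107 CPM in MTP10-HDL pools, against 69.7 and 103 CPM in PBS pools, with 0.76 (SE 0.37, adjusted p 0.815). Both were without overlap. The 4 subunits of the peripheral stalk had a median log2 fold change of 0.66 in MPPs and 0.09 in HSCs. MTP10-HDL pool 2 was the highest MPP pool for each of these, and without it Atp5pb came to 0.41. Atp5b had 1176, 1174 and 1358 CPM in MTP10-HDL pools, against 1103 and 1508 CPM in PBS pools, with a log2 fold change of -0.08 (SE 0.24, adjusted p 0.977), and PBS pool 3 was its highest pool and PBS pool 2 its lowest. Atp5a1 had 1041, 1155 and 1150.3 CPM in MTP10-HDL pools, against 879.6 and 1048 CPM in PBS pools (0.21). Atp5e, the epsilon subunit of the head, is named because it was the 1 subunit called without the filter on low counts (log2 fold change 0.99, adjusted p 0.0219), a setting in which edgeR called 345 of 26208 genes (1.32%). Its values were 85.3, 218 and 52.9 CPM in MTP10-HDL pools, against 53.9 and 67.7 CPM in PBS pools, with MTP10-HDL pool 2 far above all other pools and pool 3 below both PBS pools, and with the filter its adjusted p was 0.853.

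The c ring, a rotor that protons turn, is built from 1 mature protein encoded by 3 genes, Atp5g1, Atp5g2 and Atp5g3. Because these genes are closely related, their reads may have been split between them in a way that the sources used here do not describe. In MPPs, Atp5g3 had 267, 344 and 256 CPM in MTP10-HDL pools, against 331 and 444 CPM in PBS pools, with a log2 fold change of -0.42 (SE 0.24, adjusted p 0.853), while Atp5g1 had 31.2, 50.9 and 34.5 CPM in MTP10-HDL pools, against 30.6 and 25.6 CPM in PBS pools (0.47) and Atp5g2 27.5, 26.1 and 28.2 CPM in MTP10-HDL pools, against 19.7 and 32.2 CPM in PBS pools (0.07). Atp5g3 made up 82.0%, 81.7% and 80.3% of the 3 genes' counts in MTP10-HDL pools 1, 2 and 3, against 86.8% and 88.5% in PBS pools 2 and 3. The exact 95% binomial intervals were 81.2% to 82.7%, 81.0% to 82.4% and 79.3% to 81.4% for the MTP10-HDL pools and 85.9% to 87.7% and 87.6% to 89.3% for the PBS pools, and cover counting error only. The shares of the groups did not overlap, and MTP10-HDL pool 2 stood with the other two here, although the Atp5g3 level itself overlapped between the groups. In HSCs the shares overlapped, at 79.8% to 88.8% in MTP10-HDL pools and 68.3% to 92.4% in PBS pools. These shares are of reads, not corrected for length, and were not tested.

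Paired isoforms of complex IV were also compared as shares of counts. Cox6b2, known from testis, made up 7.40%, 5.63% and 6.84% of Cox6b counts in MTP10-HDL MPP pools, against 11.4% and 9.77% in PBS pools, and its own level hardly differed (log2 fold change -0.02). In HSCs the Cox6b2 shares overlapped, at 15.3% to 31.1% in MTP10-HDL pools and 14.3% to 58.9% in PBS pools. Cox7a1, known from muscle, made up 1.81%, 2.54% and 0.0979% of the counts of Cox7a1 and Cox7a2 in MTP10-HDL MPP pools, against 6.14% and 6.36% in PBS pools. The share of 0.0979% in MTP10-HDL pool 3 rests on 1 count (exact 95% interval 0.00248% to 0.544%). In HSCs the Cox7a1 shares also overlapped, at 1.81% to 13.9% in MTP10-HDL pools and 0% to 17.9% in PBS pools. Cox7a1 had the lowest log2 fold change of all subunits in MPPs, -1.25 (SE 1.10, adjusted p 0.899), and Cox7a2 had 0.65 (SE 0.33, adjusted p 0.819). The shares of Cox6a2 among Cox6a counts in MPPs, 8.33%, 6.41% and 11.6% in MTP10-HDL pools against 7.52% and 6.71% in PBS pools, overlapped. Cox4i2, the lung isoform, had the highest log2 fold change in MPPs, 1.15 (SE 0.89, adjusted p 0.889), on 0.408 to 1.74 CPM. Cox8b and Cox8c had no count in any MPP library, and Ndufa4l2 lay at or below 0.476 CPM in every one.

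MTP10-HDL pool 2 was the highest of the MTP10-HDL pools for 75 of 81 subunits, and PBS pool 2 was the lower PBS pool for 78. The subunits summed to 9713, 14911 and 9592 CPM in MTP10-HDL pools 1, 2 and 3, against 7483 and 10124 CPM in PBS pools 2 and 3. Only pool 2 of the MTP10-HDL pools thus lay above both PBS pools. Without MTP10-HDL pool 2 the median log2 fold change was 0.18, with 64 of 81 subunits above 0, and the complex medians were 0.11, 0.27, 0.25, 0.28 and 0.18 for complexes I to V. Without PBS pool 2 the median was 0.27, and without PBS pool 3 it was 0.73, where the lone PBS pool was assumed to vary like the others. Cox6a2 kept a log2 fold change of 1.04 without MTP10-HDL pool 2, Cox6a1 one of 0.49 and Cox8a one of 0.46, while Cox4i1 had 0.09 against 0.65 with all pools. Ribosomal protein transcripts summed to 55593, 106192 and 54972 CPM in MTP10-HDL pools 1, 2 and 3, against 42091 and 67458 CPM in PBS pools 2 and 3, the same pools being highest and lowest in each group. Of the 77 ribosomal protein genes tested, 73 were higher in MTP10-HDL, with a median log2 fold change of 0.38, and their part in the subunit result was not tested.

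**Figure D4:**
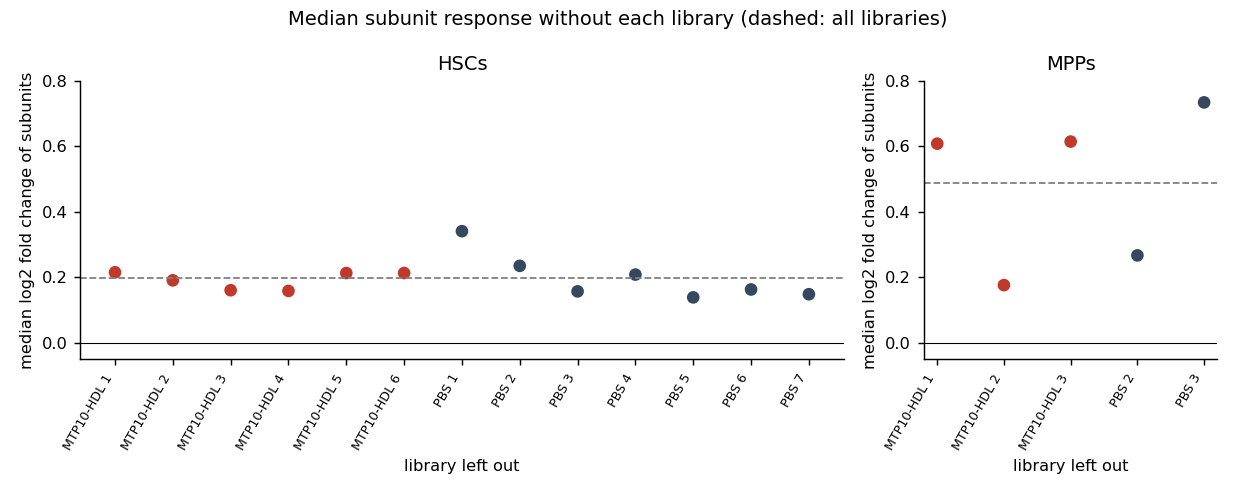
Median log2 fold change (MTP10-HDL over PBS) of the subunits tested when 1 library at a time is left out, in HSCs (left) and MPPs (right); red marks a left-out MTP10-HDL library, dark blue a left-out PBS library, and the dashed line is the median with all libraries. It runs from 0.14 to 0.34 in HSCs and from 0.18 to 0.73 in MPPs and stays above 0 throughout.

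The responses of the 2 cell types were then set side by side, with the caution that their libraries were made with different kits. Of the 77 subunits tested in both, 64 were above 0 in both and 1, Cox6b2, below 0 in both. Another 9, Sdhc and Ndufb7 among them, were below 0 in HSCs and above 0 in MPPs. The 3 that were above 0 in HSCs and below 0 in MPPs were all of ATP synthase, Atp5b, Atp5g3 and Atp5l, a small membrane subunit named here because it completes the 3. The log2 fold change was larger in MPPs for 67 of the 77, but for 31 of 77 without MPP MTP10-HDL pool 2, so that count rested on 1 library. Across the 77 subunits the fold changes of the 2 cell types had a Pearson r of 0.09, given as a description, since all subunits share the same libraries. The difference of the 2 responses was tested in a fit over both tables. edgeR called 0 of 81 subunits (smallest adjusted p 1.0) and 0.00409% of 24470 genes, and limma voom called 0 subunits and the same share of genes. At an unadjusted p under 0.05 edgeR held 2 subunits, Sdhc (difference of log2 fold changes, MPP minus HSC, 0.92) and Atp5b (-0.57), where 3.86% of all genes were held. With 1 library left out of the separate fits, the Sdhc log2 fold change ran from -0.32 to -0.07 in HSCs and from 0.25 to 1.03 in MPPs. That of Atp5b ran from 0.47 to 0.59 in HSCs and from -0.30 to 0.17 in MPPs.

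**Figure D5:**
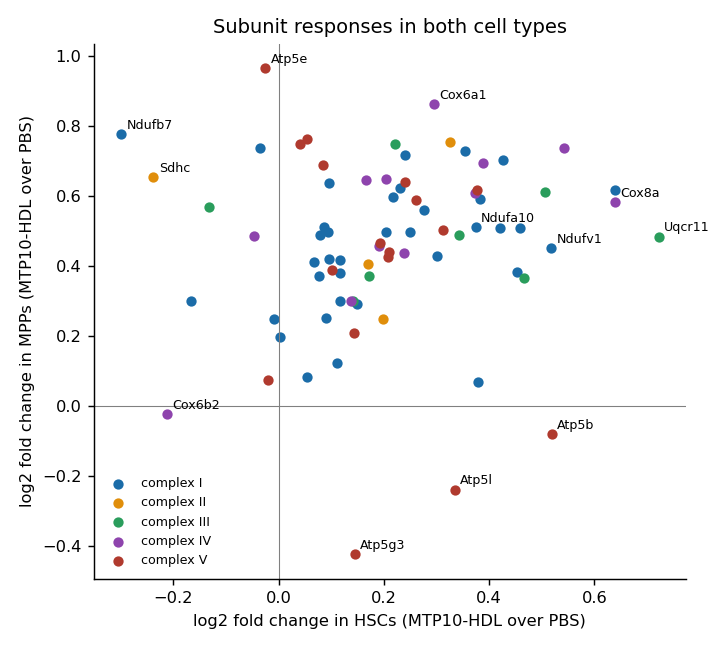
Log2 fold change (MTP10-HDL over PBS) in MPPs (vertical) against HSCs (horizontal) for the 77 subunits tested in both, coloured by complex. Most points, 64 of 77, lie above 0 on both axes, while Atp5b, Atp5g3 and Atp5l lie at the lower right and Cox6b2 alone at the lower left.

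Of the 8 subunits with the NRF1 motif shown above, all but Atp5g2 (SE 0.48) were above 0 in HSCs and all but Atp5l (SE 0.37) in MPPs. Of all subunits tested, 67 of 77 were above 0 in HSCs and 75 of 81 in MPPs. Their log2 fold changes in HSCs were 0.09 for Ndufa8, 0.10 for Ndufa11, 0.47 for Uqcrc1, 0.72 for Uqcr11, 0.29 for Cox6a1, 0.31 for Atp5k, -0.02 for Atp5g2 and 0.33 for Atp5l. In MPPs they were 0.51 for Ndufa8, 0.64 for Ndufa11, 0.37 for Uqcrc1, 0.48 for Uqcr11, 0.86 for Cox6a1, 0.50 for Atp5k, 0.07 for Atp5g2 and -0.24 for Atp5l. Among the regulators of mitochondrial biogenesis, a list of 14 genes that were all tested in both tables, edgeR called 0. Nrf1 itself had a log2 fold change of -0.12 in HSCs and -0.08 in MPPs, and Gabpa 0.14 and 0.11. Yy1 had 0.31 in HSCs at an unadjusted p of 0.0312 (adjusted p 0.528) and -0.03 in MPPs. Ppargc1a, the coactivator PGC-1alpha, had -0.44 in HSCs and -0.12 in MPPs, and the median of the list was 0.04 in both.

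Assembly factors and electron carriers, which help build the complexes or move electrons between them, were also short of the threshold. Of 15 complex I assembly factors, 9 were above 0 in HSCs and 13 in MPPs, with medians of 0.10 and 0.19. Ndufaf6 was the 1 assembly factor at an unadjusted p under 0.05, and it was so in both tables. It averaged 6.15 ± 0.628 CPM in MTP10-HDL HSCs (SD, n = 6) and 3.75 ± 1.07 CPM in PBS HSCs (SD, n = 7), with a log2 fold change of 0.71 (edgeR adjusted p 0.543). In MPPs it averaged 14.3 ± 2.85 CPM with MTP10-HDL (SD, n = 3) and 8.09 ± 1.17 CPM with PBS (SD, n = 2), with a log2 fold change of 0.83 (edgeR adjusted p 0.754). The 20 complex IV assembly factors tested had medians of 0.23 in HSCs (15 above 0) and 0.28 in MPPs (16 above 0). The 6 factors of complex III had 0.31 and 0.21, and the 4 of complex II 0.01 and 0.35. The 3 of complex V had 0.0049 in HSCs and 0.35 in MPPs. The list of electron carriers and ubiquinone synthesis had 0.17 in HSCs (14 of 19 above 0) and 0.25 in MPPs (16 of 19), and Cycs, cytochrome c itself, had 0.51 in HSCs and 0.56 in MPPs.

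Subunits made from mitochondrial DNA did not share the direction of the nuclear ones in HSCs. Of 13 such genes, 7 were tested, and 5 (mt-Co2, mt-Co3, mt-Atp6, mt-Atp8 and mt-Nd4l) are listed at 0 in every library of both tables. In HSCs 6 of the 7 were below 0, with a median log2 fold change of -0.22, and their sum was 10096 to 17696 CPM in MTP10-HDL pools against 10685 to 22453 CPM in PBS pools. In MPPs 7 of 7 were above 0, with a median of 0.25 and sums of 18248 to 39983 CPM in MTP10-HDL pools against 22280 to 26614 CPM in PBS pools. No gene of the list reached an unadjusted p under 0.05 in either table. The groups overlapped in both tables, and MTP10-HDL pool 2, the highest for the nuclear subunits, had the lowest share of counts on mitochondrially encoded proteins among MPP libraries, 1.69%.

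Markers of other cell types, and of HSC and MPP identity, had these values in the same libraries. Erythroblast markers were below 0 for 14 of 14 genes tested in HSCs, summing to 369 to 709 CPM in MTP10-HDL pools against 676 to 1330.2 CPM in PBS pools, and for 13 of 14 in MPPs, summing to 399 to 472 CPM against 577 to 857 CPM. B and plasma cell markers were below 0 for 10 of 10 in HSCs (184 to 1236 CPM in MTP10-HDL pools, 228 to 6429.9 CPM in PBS pools) and for 8 of 12 in MPPs (1647 to 3883 CPM, against 3850.1 to 7381 CPM). Neutrophil markers were above 0 for 12 of 12 in HSCs (674 to 6098 CPM, against 114 to 4116 CPM) and for 8 of 12 in MPPs (258 to 1780.3 CPM, against 646 to 818 CPM). Only MTP10-HDL pool 3 of the MPPs summed above the PBS pools. The median of the MTP10-HDL MPP pools was 299 CPM, below both PBS pools. In MPPs 11 of 12 HSC identity markers were below 0, with 1184 to 1438 CPM in MTP10-HDL pools against 1887 to 2025 CPM in PBS pools. In HSCs 8 of 12 were below 0 (1866 to 2894 CPM, against 1905 to 3623 CPM). MPP identity markers were above 0 for 4 of 7 in MPPs (2895 to 3033 CPM, against 2361 to 2743 CPM). In HSCs 6 of 7 were above 0 (891 to 1460 CPM, against 853 to 1523 CPM). Monocyte and macrophage markers were above 0 for 9 of 12 in HSCs (204 to 3396 CPM in MTP10-HDL pools, 178 to 2310.3 CPM in PBS pools) and for 6 of 12 in MPPs (133 to 217 CPM, against 161 to 194 CPM). Their highest MTP10-HDL sum in HSCs was that of pool 1. The HSC medians were 360 CPM with MTP10-HDL and 436 CPM with PBS. T and NK cell markers were above 0 for 4 of 6 in HSCs (64.3 to 123 CPM, against 35.8 to 107 CPM) and for 6 of 6 in MPPs (56.0 to 93.5 CPM, against 44.5 to 51.7 CPM). Platelet and megakaryocyte markers were below 0 for 3 of 7 in HSCs (114 to 369 CPM, against 70.2 to 338 CPM) and for 5 of 6 in MPPs (46.5 to 51.0 CPM, against 35.5 to 50.9 CPM). Their summed level in MPPs was not lower, with medians of 47.5 CPM with MTP10-HDL and 43.2 CPM with PBS. Of these 6 cell type lists and the HSC and MPP identity lists, 2 markers, the platelet genes Gp1bb and Gp6 in MPPs, were at 0 in all libraries of a cell type, and edgeR called none of the markers at the adjusted threshold. At an unadjusted p under 0.05, erythroblast markers were lower for 12 of 14 in HSCs and 9 of 14 in MPPs. B and plasma cell markers were lower at that level for 6 of 10 and 4 of 12. In MPPs, HSC identity markers were lower at that level for 4 of 12 and monocyte and macrophage markers for 3 of 12. MPP identity markers were higher for 2 of 7 in MPPs, and platelet and megakaryocyte markers for 1 of 6. In HSCs, monocyte and macrophage markers were higher for 1 of 12. Over all genes tested, 4.47% were lower in HSCs and 4.06% in MPPs, and 4.36% and 2.17% were higher. Neutrophil markers and T and NK cell markers held 0 at that level in both. The part of all these markers in the subunit values was not tested. Pseudogene copies of subunit genes, 13 rows, took 114 counts in all HSC libraries and 237 in all MPP libraries, or 0.0302% and 0.0206% of the subunit counts.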

How the data were processed

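Messenger RNA of sorted bone marrow HSCs and MPPs was measured in 18 libraries. The deposited tables hold raw read counts per Ensembl gene. Per the labels' protocols, HSC libraries came from amplified complementary DNA and MPP libraries from poly-A selected RNA with insect carrier RNA. Per the submitters' processing notes, CASAVA 1.8.2 with STAR 2.5.2b made the HSC values, and STAR 2.7.2a with DESeq2 1.24 in R 3.6.1 the MPP values, on mm10. The sources used here do not give the counting tool, the annotation or the use of strand, so reads of overlapping or antisense genes cannot be told apart. HSC PBS columns are numbered 1 to 7 where the labels skip to 8, so only their group was matched to the labels, and pool numbers, the HSC replicate block and the pairing check use the column numbers. No per-sample column was left unused and no pair of columns were identical.

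The tables were fitted separately with edgeR 4.0.16 (R 4.3.3): filterByExpr defaults, TMM scaling, the quasi-likelihood F test (2-sided) and Benjamini-Hochberg adjustment over all genes at 0.05. Fold changes are MTP10-HDL over PBS. Scores are means of log2 CPM (prior count 2), centred per gene. A joint fit with 4 group means tested the difference between responses. DESeq2 1.42.0 (on the genes that passed edgeR's filter), limma 3.58.1 (voom), other scalings and filters, a replicate block, technical groups, thinning and leaving out libraries were alternatives. Within-kind differences of the HSC score, the fit without MPP MTP10-HDL pool 2 shown by itself and the comparison of cell types without it were added after the data were seen. The scripts were tested on simulated data with planted changes larger than those of the subunits. That run does not show whether shifts as small as those of most subunits can be detected. Intervals on shares of counts are exact (Clopper-Pearson, 95%) and cover counting error only. HSC libraries are shallower than MPP libraries, so low subunits rest on few counts there, and the MPP comparison has 3 against 2 libraries.

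The subunits and all gene lists were chosen with earlier results of these data known. Subunits are named by rule: any past the threshold, those of smallest p in each complex (4 in complex I, 2 in each other), a fixed set of catalytic subunits, the isoform sets, and the largest and smallest fold changes. A further part of the rule, on levels per transcript length, and protein sequences were not used here. The values of 1 subunit are not reported here, although it is included in the counts and medians. From the other lists, genes of smallest p and a few well-known regulators, chosen after their values were seen, are named. Gene positions and promoters are from RefSeq, build GRCm38.p6, matched by symbol.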

Additional observations from a re-analysis of the deposited data

Results flagged for a closer look

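The highest or lowest library was compared with the others in 76 HSC groups of named subunits and sums, and 5 stood apart by Dixon's criterion, where chance gives about 1 in 20 groups. MPP groups, with 3 and 2 libraries, were too small to be compared in this way. Ndufv1 was at 28.9 CPM in PBS pool 5, below the other PBS pools at 39.7 to 47.6 CPM. Without that pool its log2 fold change was 0.45. In MTP10-HDL pool 3, Ndufs1 was at 96.6 CPM, above the other MTP10-HDL pools at 46.2 to 64.6 CPM, and Cox5a was at 35.6 CPM, above the others at 11 to 20.1 CPM. Without pool 3 the log2 fold change of Ndufs1 was -0.16 and that of Cox5a 0.14. Atp5g2 was at 7.88 CPM in PBS pool 6, above the other PBS pools at 1.54 to 3.39 CPM. The complex II subunits summed to 574 CPM in PBS pool 1, above the other PBS pools at 389 to 462 CPM.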

How the results depend on the processing

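In HSCs the median log2 fold change of the subunits was above 0 in every setting run, at 0.06 without PBS pools 5 and 7 and 0.14 to 0.34 when 1 library was left out, with 59 to 71 subunits above 0. In MPPs it was 0.18 to 0.73 when 1 library was left out, with 64 to 78 above 0. Counts of called genes moved. HSC genes called were 92 by DESeq2 (1 subunit, Atp5b), 44 without a filter on low counts, and 0 to 1 when 1 library was left out. MPP genes called were 180 by DESeq2, 345 without the filter (1 subunit, Atp5e), 59 with the replicate block, 1 after thinning to the shallowest library, and 0 to 17 when 1 library was left out, 17 without PBS pool 3. The cause was not tested. With 1 library left out, 0 subunits were called in either cell type, and the test of the difference between cell types called 0 subunits in every setting run.

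Libraries of the same replicate number (column number for HSCs) had correlations of -0.19 to 0.19 in HSCs and of -0.17 and -0.03 in MPPs. HSC PBS column numbers may not be the replicate numbers, and MPPs offer few such pairs. The check therefore cannot show whether the pools were paired. With the replicate block the subunit medians were 0.21 in HSCs and 0.58 in MPPs, and 0 subunits were called.

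Some small fold changes took the other sign. In HSCs this held without the filter for Ndufs1 (0.050) and Atp5g2 (0.036), for Atp5g2 also with the replicate block (0.057) and with a term for the technical kind (0.077), and without PBS pools 5 and 7 for Uqcrq (-0.0495), Atp5pb (-0.022), Atp5j2 (-0.0494), Cox7a2l (-0.052) and Ndufa4 (-0.067). The HSC score difference was -0.0087 among libraries with few genes. In MPPs Cox6b2 was at 0.00219 without the filter and 0.036 with the replicate block. When 1 library was left out, HSC ranges were -0.27 to 0.40 for Atp5g2, -0.066 to 0.16 for Atp5j2, -0.0032 to 0.25 for Ndufa4 and -0.16 to 0.11 for Ndufs1, and MPP ranges were -0.30 to 0.17 for Atp5b, -0.25 to 0.47 for Atp5g2, -0.23 to 0.17 for Cox6b2 and -0.024 to 0.65 for Cox7a2l.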
